A study of Mus musculus with 18 samples.

Results

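Snai2 (ENSMUSG00000022676), also called Slug, encodes a zinc-finger repressor of the Snail family. It was chosen by name: 1 of the 40620 rows of the count table carries its symbol, and that row is annotated to chromosome 16. The row was followed across 18 RNA-seq libraries of MC3T3-E1 cells, a mouse preosteoblast line derived from newborn calvaria, in which the corepressor Rcor2 was targeted by short hairpins. The lines stably expressed 1 of 3 lentiviral hairpins, namely shRcor2-18, shRcor2-20, or the control shScramble, and each line gave 2 samples at each of 0h, 24h and 7d, so that there were 9 groups. The genotype label reads RCOR2 knockdown for both hairpins and WT for shScramble, so the WT cells carry a lentiviral hairpin too. Osteogenic medium contained dexamethasone (10 nM), ascorbic acid (50 µg/ml) and beta-glycerophosphate (5 mM), per the labels. The times are those of the sample titles, and the protocol text does not mention 7d. All groups come from a single cell line. The labels do not state whether both samples of a group were grown apart, so the p-values below reflect the spread between samples that may differ only technically.

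SNAI2 binds E-box sequences, best known as CAGGTG, through its zinc fingers and represses the genes it binds. Its amino-terminal SNAG motif recruits the histone demethylase KDM1A, which acts together with CoREST proteins, the family to which the product of Rcor2 belongs. The factor is best known from neural crest migration and from the epithelial-to-mesenchymal transition, where it represses cadherin and other junction genes, and in mouse skeletal stromal cells Snail-family proteins act with YAP and TAZ in self-renewal and osteogenesis.

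The name of a row could not be taken for granted in these data. Many genes used by every cell were close to 0 under their own names, so every chromosome was scanned from its start for rows whose names fit the reads, a stretch here called in register. Stretches were found on 2 of 20 chromosomes, with 525 coding rows on chromosome 16 and 132 on chromosome 19, and together they held 13.1% of all counts. Of 19 broadly expressed genes held out of the search and lying inside them, 18 (94.7%) reached 20 CPM, the read count scaled to the total of its library, with a median of 293 CPM, against 68 of 379 (17.9%) outside, with a median of 0.27 CPM. Snai2 lay inside, with 96 coding rows before it and 428 after it in its stretch. The row of Rcor2 lay outside these stretches, held 195 to 268 CPM over the 15 libraries described next, and differed by -0.02 ± 0.06 (log2, SE) between the hairpins and shScramble over 24h and 7d (edgeR adjusted p = 1.00), so it gave no check of the hairpin labels, and each library goes by its label here. Totals were 3504808 to 6139315 counts in 15 libraries. The 3 other libraries, sample 1 of each construct at 0h, had 2572026, 7181418 and 9798498 counts and stood apart, with 18.5% to 19.1% of their counts in the in-register stretches against 10.8% to 11.99% in the other 15. They were left out of the effects of time.

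The Snai2 row held 319 to 3629 reads per library. Set against the length of all annotated exons of a gene, it was among the better expressed in-register genes. Its mean over 15 libraries was 77.3 CPM per kilobase (RPKM) for 2021 bases of annotated exon. That was above 570 of 657 in-register genes (86.8%), whose median was 11.1 RPKM. Only 453 of the 657 had enough reads to be tested, and Snai2 was among these. Among the 6 coding rows on each side, the spindle and dynein regulator Nde1 (106 RPKM) and the replicative helicase subunit Mcm4 (100.0 RPKM) stood above it. The RNA-binding protein gene Marf1 (24.6 RPKM), the drug transporter Abcc1 (21.7 RPKM), the centrosomal gene Fopnl (29.7 RPKM), the ubiquitin-conjugating enzyme variant Ube2v2 (31.2 RPKM) and the gamma-tubulin complex gene Mzt2 (47.2 RPKM) stood below it. Smooth muscle myosin Myh11 was at 0.67 RPKM, and the rows directly beside Snai2, A630010A05Rik and Efcab1, were at 0 RPKM.

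Snai2 was highest at 0h in every construct. CPM are given here after library totals were scaled by the trimmed mean of M values (TMM). At 0h the row held 215 CPM in sample 1 and 249.8 CPM in sample 2 of shRcor2-18, 401 and 251 CPM in shRcor2-20, and 197 and 182.5 CPM in shScramble. At 24h it held 97.5 and 176 CPM in shRcor2-18, 151.8 and 194 CPM in shRcor2-20, and 105.5 and 151.5 CPM in shScramble. At 7d it held 89.45 and 156 CPM in shRcor2-18, 135 and 167 CPM in shRcor2-20, and 83.9 and 154 CPM in shScramble. Within each construct both 0h libraries lay above all 4 later libraries, while the ranges of 24h and 7d overlapped in all 3 constructs. Sample 1 at 0h held 18.5% to 19.1% of its counts in register, against 10.8% to 11.99% in the other libraries. The CPM were not scaled to in-register counts, so in-register genes may read high in sample 1 at 0h. Of the other 452 in-register genes tested, 40 (8.85%) lay higher at 0h in this way with all 18 libraries, and 8 (1.77%) lay lower. When sample 1 at 0h was left out, 44 (9.73%) lay higher and 32 (7.08%) lay lower. Pooled over the constructs without sample 1 at 0h, the 0h libraries (182.5 to 251 CPM) overlapped the 24h libraries (97.5 to 194 CPM) but not the 7d libraries (83.9 to 167 CPM). How many other genes had this pooled separation was not counted. Taken within each construct, 96 of the other 452 genes (21.2%) lay higher at 0h than at 7d without overlap, and 94 (20.8%) lay lower.

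**Figure D1:**
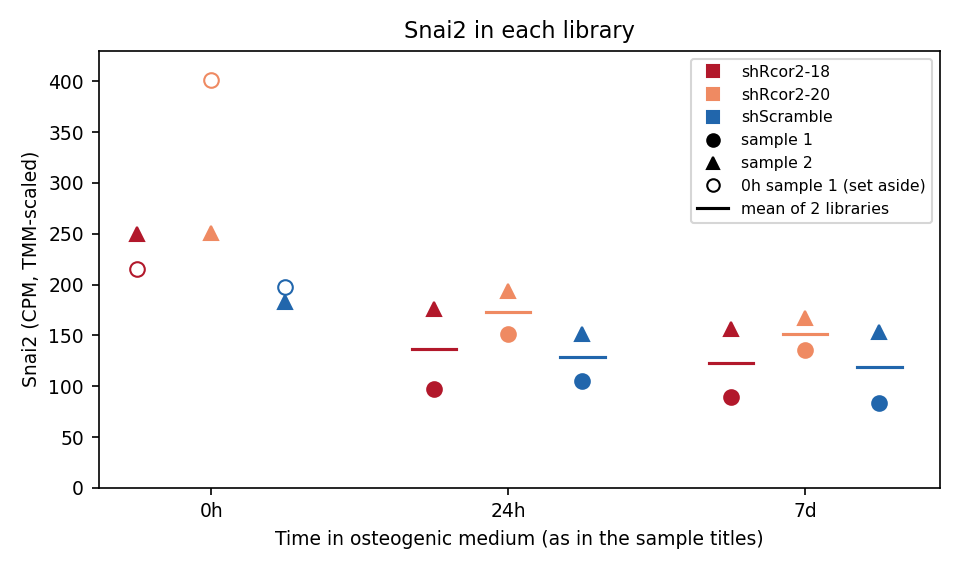
Snai2 in each of 18 libraries, in CPM after TMM scaling, by time and construct. Circles are sample 1 and triangles sample 2, open circles are the 0h libraries left out of the effects of time, and bars are means of 2 libraries. In each construct both 0h points lie above all 4 later points, where the open circles come from libraries with a larger share of counts in register. At 24h and 7d sample 2 lies above sample 1 in all 3 constructs.

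The 3 groups at 0h had the highest of the 9 group means, and below them times and constructs were mixed in the order. Snai2 averaged 326 ± 106 CPM in shRcor2-20 at 0h, 232.5 ± 24.5 CPM in shRcor2-18 at 0h and 190 ± 10.5 CPM in shScramble at 0h (SD, n = 2 each, sample 1 included). Next came shRcor2-20 at 24h (173 ± 29.9 CPM) and at 7d (151 ± 22.2 CPM), shRcor2-18 at 24h (137 ± 55.5 CPM), shScramble at 24h (128.5 ± 32.6 CPM), shRcor2-18 at 7d (122.6 ± 46.9 CPM) and shScramble at 7d (119 ± 49.3 CPM; SD, n = 2 each). Ranges of neighbours in this order did not overlap among the 3 groups at 0h, where the highest mean rests on 1 library of 401 CPM that stood apart with the other sample 1 libraries. From shScramble at 0h downwards every neighbouring pair overlapped.

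The effect of time was tested as the mean over the 3 constructs in the 15 libraries. Snai2 averaged 228 ± 39.2 CPM at 0h (SD, n = 3), 146 ± 38.1 CPM at 24h and 131 ± 35.7 CPM at 7d (SD, n = 6 each). The difference by 24h was -0.64 ± 0.28 on the log2 scale (SE; 95% interval -1.28 to 0.0066), with an edgeR adjusted p of 0.441, in a comparison that called 1.86% of 12930 rows. The difference by 7d was -0.79 ± 0.28 (95% interval -1.44 to -0.15), or 1.73-fold lower, and did not pass the threshold of 0.05 either (edgeR adjusted p = 0.158, unadjusted p = 0.0214), where 5.76% of rows were called. Between 24h and 7d the difference was -0.16 ± 0.23 (95% interval -0.69 to 0.38; edgeR adjusted p = 0.83), where 2.34% of rows were called. In bulk RNA, fewer cells with the transcript and less transcript per cell cannot be told apart.

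The estimate was of similar size in each construct, and none passed the threshold alone. By 7d it was -1.03 ± 0.48 in shRcor2-18 (edgeR adjusted p = 0.581), -0.73 ± 0.49 in shRcor2-20 (edgeR adjusted p = 0.74) and -0.62 ± 0.49 in shScramble (edgeR adjusted p = 0.648; log2, SE). These comparisons called 0.433%, 0.588% and 0.959% of rows, in the same order. By 24h the values were -0.87 ± 0.48, -0.54 ± 0.49 and -0.51 ± 0.49 (edgeR adjusted p = 0.931, 0.91 and 0.893), where 0.302%, 0.348% and 0.371% of rows were called. The values between 24h and 7d were -0.16 ± 0.41, -0.20 ± 0.41 and -0.11 ± 0.41 (edgeR adjusted p = 0.99, 0.97 and 0.995), where 0.0387%, 0.0155% and 0.0773% were called.

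Whether the lower level at 7d counted as a call turned on the rows and libraries in the fit. Only 453 of the 12930 rows in the main fit were in register, and its common dispersion, the spread shared over rows, was 0.279. Over in-register rows alone the common dispersion was 0.0361. That of Snai2 itself was 0.093 in the main fit and 0.066 over in-register rows. With the test restricted to the 453 in-register genes, the 7d difference was -0.79 ± 0.25 with an edgeR adjusted p of 0.0436, in a fit that called 25.6% of genes, so a call there was common. All 18 libraries, which include sample 1 at 0h with its larger share of counts in register, gave -0.91 ± 0.24 with an edgeR adjusted p of 0.0465, where 6.98% of 12157 rows were called. The 24h difference did not pass in either fit, with -0.62 ± 0.25 (edgeR adjusted p = 0.214) where 5.3% of genes were called and -0.77 ± 0.24 (edgeR adjusted p = 0.138) where 1.56% of rows were called. Between 24h and 7d these fits gave -0.17 ± 0.21 (edgeR adjusted p = 0.627, with 18.3% called) and -0.14 ± 0.24 (edgeR adjusted p = 1.00, with 0.313% called).

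Sample number within a construct linked 24h to 7d, since deviations from the group mean correlated between the times at 0.43 in shRcor2-18, 0.24 in shRcor2-20 and 0.47 in shScramble across genes. With that number as a replicate block the estimates were smaller and their errors narrower. The 7d difference was then -0.53 ± 0.09 over all rows (95% interval -0.76 to -0.29; edgeR adjusted p = 0.0566), where 3.34% of rows were called. Over in-register genes with the block it was -0.52 ± 0.11 at 7d (edgeR adjusted p = 0.000765), where 32.5% of genes were called, and -0.35 ± 0.11 at 24h (edgeR adjusted p = 0.0484), where 11.9% were called. Between 24h and 7d the blocked value was -0.17 ± 0.07 over all rows (edgeR adjusted p = 0.323, with 1.31% called) and -0.18 ± 0.09 over in-register genes (edgeR adjusted p = 0.136, with 33.1% called). At 24h over all rows it was -0.36 ± 0.09 (edgeR adjusted p = 0.256, with 0.433% called). These fits lean on a tie between sample 2 at 0h and sample 2 later, which the distances between libraries cannot establish. Over the other in-register genes, sample 2 of shRcor2-20 at 0h lay closer to sample 1 at 24h (chi-square per degree of freedom 37.4) than to sample 2 (46.3). For shRcor2-18 it lay closer to sample 2 (49.6) than to sample 1 (60.2), and so did shScramble (49.4 and 85.9). In these constructs sample 1 at 24h formed a pair of closest libraries of its own, described below. A nearer sample 2 there need not reflect the sample number.

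Sample 2 alone gave differences of similar size to the blocked fits. Each construct kept only sample 2 at 0h, so the blocked values, averaged over 24h and 7d, compare sample 2 with itself over time. This likeness was therefore set by the design and is no further support. In shRcor2-18 sample 2 went through 249.8, 176 and 156 CPM at 0h, 24h and 7d, in shRcor2-20 through 251, 194 and 167 CPM, and in shScramble through 182.5, 151.5 and 154 CPM. The 7d level relative to 0h was -0.68, -0.59 and -0.25 on the log2 scale in these 3 tracks. Fitted over the 9 libraries of sample 2, the 7d difference was -0.50 ± 0.10 (edgeR adjusted p = 0.0484 over all rows, with 5.31% called). Over in-register genes it was -0.51 ± 0.10 (edgeR adjusted p = 0.00252, with 36.6% called). The 24h difference of sample 2 was -0.39 ± 0.10 over all rows (edgeR adjusted p = 0.216, with 0.928% called) and -0.35 ± 0.10 over in-register genes (edgeR adjusted p = 0.0439, with 12.4% called). Between 24h and 7d sample 2 differed by -0.11 ± 0.10 over all rows (edgeR adjusted p = 0.659, with 1.01% called) and by -0.17 ± 0.10 over in-register genes (edgeR adjusted p = 0.257, with 24.3% called).

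**Figure D2:**
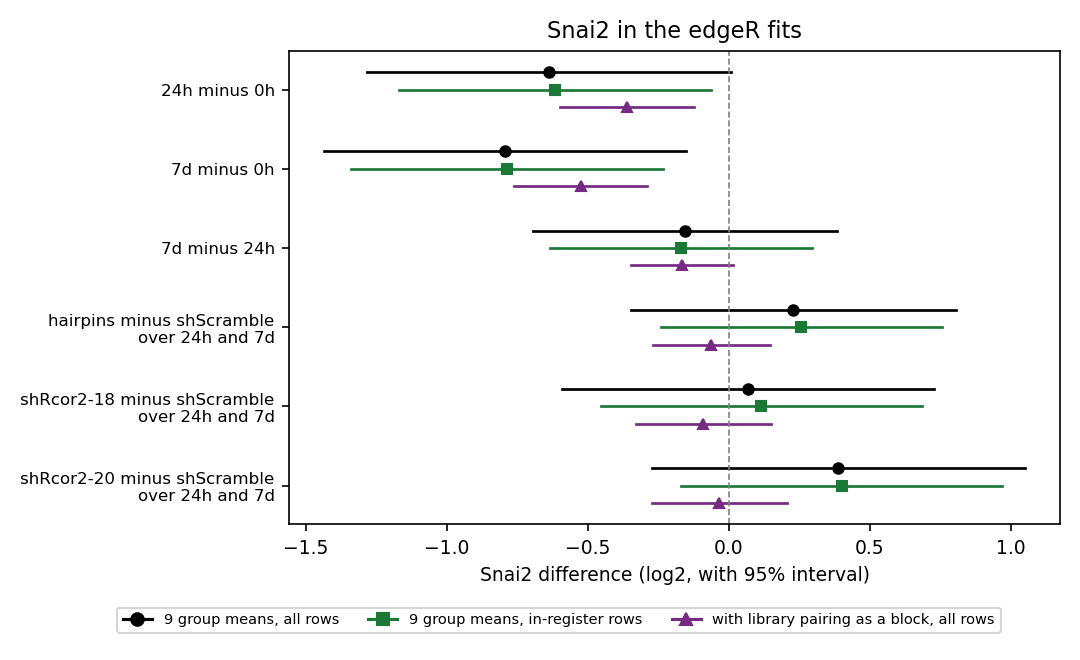
Snai2 differences on the log2 scale from edgeR fits, with 95% intervals; negative values mean lower at the later time or lower with the hairpins. Black circles are the fit of 9 group means to all rows, green squares the same fit to in-register rows, and purple triangles the fit to all rows with a block, which is the sample number within a construct for the times and the pairs of closest libraries for the constructs. All 3 intervals for 7d minus 0h lie below 0, and all intervals of the hairpin comparisons include 0.

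Neither hairpin gave a Snai2 level that differed from shScramble past the threshold. At 0h all 4 hairpin libraries (215 to 401 CPM) lay above both shScramble libraries (182.5 and 197 CPM), with the sample 1 libraries that stood apart included. How many other genes had this separation was not counted. The difference at 0h was 0.56 ± 0.37 (log2, SE; 95% interval -0.25 to 1.36; edgeR adjusted p = 1.00, unadjusted p = 0.156), fitted to all 18 libraries. In that comparison edgeR called 0% of 12157 rows, with 235 rows at an unadjusted p under 0.05 and 18 called by DESeq2. The median stood at 0.11 over all rows and at 0.17 over in-register genes. Of the 3 libraries at 0h that did not stand apart, those of the hairpins were the closest to each other (chi-square per degree of freedom 2.75), while that of shScramble lay at 27.9 from shRcor2-18 and 31.4 from shRcor2-20.

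At 24h the hairpin libraries spanned 97.5 to 194 CPM around the shScramble libraries at 105.5 and 151.5 CPM, and at 7d they spanned 89.45 to 167 CPM around 83.9 and 154 CPM. The groups overlapped at both times. The difference was 0.26 ± 0.36 at 24h (edgeR adjusted p = 1.00), where 0.0155% of rows were called. It was 0.20 ± 0.36 at 7d (edgeR adjusted p = 1.00), where 0.0387% were called. Over both times it was 0.23 ± 0.25 (95% interval -0.35 to 0.81; edgeR adjusted p = 1.00), where 0.0464% were called. The effect at 7d minus that at 24h was -0.06 ± 0.50 (95% interval -1.21 to 1.08; edgeR adjusted p = 1.00), where 0.0541% were called. Taken singly over both times, shRcor2-18 minus shScramble was 0.07 ± 0.29 (95% interval -0.59 to 0.73; 0.0619% of rows called) and shRcor2-20 minus shScramble was 0.39 ± 0.29 (95% interval -0.27 to 1.05; 0.0464% called), both with an edgeR adjusted p of 1.00. The hairpins differed from each other by -0.32 ± 0.29 for shRcor2-18 minus shRcor2-20 (95% interval -0.98 to 0.34; edgeR adjusted p = 1.00), where edgeR called 0% of 12930 rows, with 478 at an unadjusted p under 0.05 and 26 called by DESeq2. The direction of the hairpin effect at 7d and of shRcor2-18 over both times depended on single libraries. Without sample 1 of shScramble at 7d the difference at 7d was -0.18, and without sample 2 of shRcor2-18 at 7d it was -0.03. For shRcor2-18 over both times it was -0.05 and -0.12 without sample 1 of shScramble at 24h or at 7d, and -0.18 and -0.16 without sample 2 of shRcor2-18 at 24h or at 7d.

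The spread of Snai2 at 24h and 7d followed a pairing of libraries that crossed the constructs. Each library was matched to the one closest to it at the same time over 452 in-register genes, with Snai2 left out of the distance. At both times sample 1 of shRcor2-18 matched sample 1 of shScramble, sample 1 of shRcor2-20 matched sample 2 of shScramble, and sample 2 of shRcor2-18 matched sample 2 of shRcor2-20. The matched libraries lay at 3.13 to 7.41 chi-square per degree of freedom, against 14.6 to 38.0 between the 2 samples of a group. The labels state no such pairing, and what the paired libraries share was not tested.

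The levels of Snai2 in these pairs were as follows. In the first pair the row held 97.5 CPM in shRcor2-18 and 105.5 CPM in shScramble at 24h, and 89.45 and 83.9 CPM at 7d. In the second pair it held 151.8 CPM in shRcor2-20 and 151.5 CPM in shScramble at 24h, and 135 and 154 CPM at 7d. In the third pair, of shRcor2-18 and shRcor2-20, it held 176 and 194 CPM at 24h, and 156 and 167 CPM at 7d. The 3 pairs did not overlap and stood in the same order at both times, with pair means of 101.5, 152 and 185 CPM at 24h and 86.7, 144.5 and 161 CPM at 7d. At 7d the pairs with the higher levels were barely apart, since the highest library of the one (153.6 CPM) lay closer to the lowest of the other (155.8 CPM) than the libraries within either pair lay to each other. Of the other 452 in-register genes, 30 (6.64%) had 3 pairs in 1 order without overlap at both times. After the mean of each time was subtracted, 96.8% of the sum of squares of Snai2 over the 12 libraries lay between pairs, against a median of 49.3% over the 453 in-register genes, of which 2 had a higher share. Between constructs lay 24.4% of it, with a median of 17.1% over those genes. The pairs were formed from the other genes of these same libraries, so these shares are a description.

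**Figure D3:**
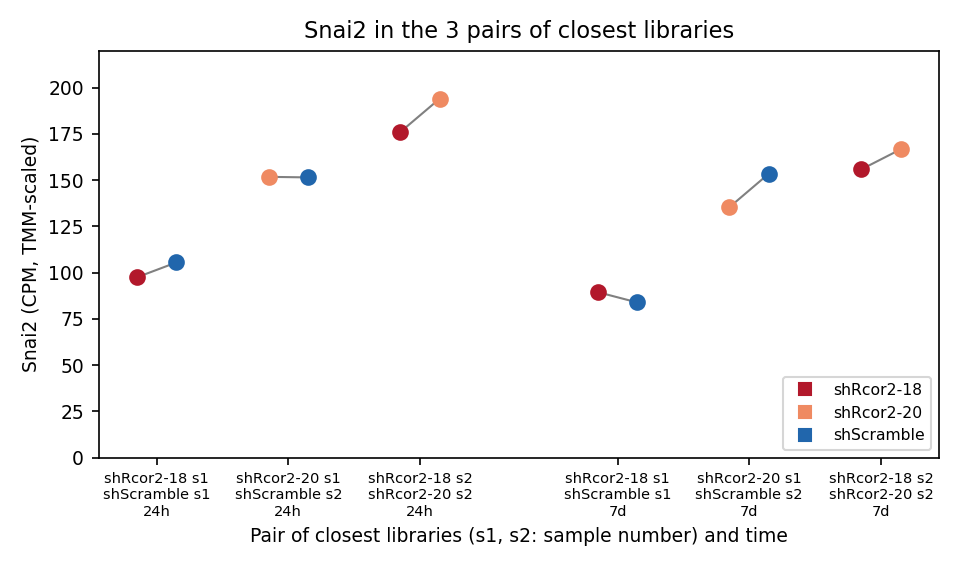
Snai2 in CPM after TMM scaling in the 12 libraries at 24h and 7d, grouped by pairs of closest libraries; lines join the libraries of a pair and colours give the construct. Pair means run 101.5, 152 and 185 CPM at 24h and 86.7, 144.5 and 161 CPM at 7d, with no overlap between pairs at either time.

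Within these pairs no hairpin comparison of Snai2 passed the threshold. The pairs were picked as the closest libraries in these same data and all crossed constructs, so these fits are no separate support. With the pair as a block, the hairpins minus shScramble gave -0.05 ± 0.11 at 24h and -0.08 ± 0.11 at 7d (log2, SE; edgeR adjusted p = 1.00 each). There 0.0171% and 0% of 11724 rows were called. Over both times the blocked value was -0.06 ± 0.09 (95% interval -0.27 to 0.15; edgeR adjusted p = 1.00), where 0.00853% were called. It was -0.09 ± 0.10 for shRcor2-18 (95% interval -0.33 to 0.15) and -0.03 ± 0.10 for shRcor2-20 (95% interval -0.27 to 0.21), both with an edgeR adjusted p of 1.00 and 0.00853% called. The sign was opposite to that of the unblocked fit. Of the 3 pairs, the one with the lowest Snai2 held a shScramble library and the one with the highest held none.

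Genes whose level followed that of Snai2 were looked up among in-register genes, by Pearson correlation of log2 CPM. The points share libraries and depth, and the pairs leave fewer independent points than libraries, so the correlations are a description. Over the 15 libraries and 409 genes the highest were Yeats2 (0.91), a chromatin reader of the ATAC acetyltransferase complex, App (0.91), the amyloid precursor protein, Litaf (0.89), an endosomal membrane protein, Nrip1 (0.88), a nuclear receptor corepressor, the centriole gene Spice1 (0.86) and the RNA-binding gene Carhsp1 (0.86). The median of all 409 genes was 0.05. These ranks rested on leaving out sample 1 at 0h: with all 18 libraries 0 of the 6 were among the 6 highest, with a correlation of 0.24 for App and of 0.76 to 0.84 for the other 5. None of these 6 genes was called between any times in the same fit. Their 7d minus 0h values ran from -0.21 for Yeats2 to -0.49 for Carhsp1, against -0.79 for Snai2.

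The lowest correlations over the 15 libraries were those of Fbxo40 (-0.92), a muscle ubiquitin ligase subunit, Trp63 (-0.88), an epithelial transcription factor, Poglut1 (-0.83), which glucosylates Notch receptors, and the sorting nexin Snx32 (-0.82). Fbxo40 held 6.25 to 10.1 CPM at 0h, 14.0 to 88.5 CPM at 24h and 14.7 to 67.6 CPM at 7d. The library with the most Fbxo40 was sample 1 of shScramble at 24h, which with its partner had the least Snai2 at that time. Trp63 held 190 to 253 CPM at 0h, 242 to 513 CPM at 24h and 338.5 to 556 CPM at 7d. The libraries of sample 1 at 0h, left out of these ranges, held 23 to 52.9 CPM of Fbxo40 and 453 to 582 CPM of Trp63. Neither passed the threshold by 7d, with 2.35 ± 0.75 for Fbxo40 (edgeR adjusted p = 0.12) and 0.88 ± 0.29 for Trp63 (edgeR adjusted p = 0.132; log2, SE). With all 18 libraries the correlations were -0.66 for Fbxo40, -0.36 for Trp63 and -0.29 for Snx32, and that of Poglut1 turned to 0.25.

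Over the 12 libraries at 24h and 7d, with the mean of each time subtracted, the genes that followed Snai2 most closely of 404 were different in part. Phldb2 (0.97), which anchors microtubules at the cell cortex, led Yeats2 (0.97), the cadherin-binding catenin relative Arvcf (0.94), the lipocalin Apod (0.90), Mcm4 (0.90) and the hedgehog co-receptor Boc (0.90). The lowest were Trp63 (-0.95), the Rab effector Ehbp1l1 (-0.94), Fibp (-0.93), which binds a fibroblast growth factor inside cells, and the repressor Bcl6 (-0.93). The pair with the least Snai2 averaged 249 CPM of Phldb2 at 24h, against 319 and 364 CPM in the others, and 137 CPM at 7d, against 205 and 210 CPM. That pair averaged 479.5 CPM of Trp63 at 24h, against 265 and 243 CPM, and 548 CPM at 7d, against 368.5 and 345 CPM.

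The genes closest to Snai2 between pairs had unlike courses in time. By 7d Phldb2 fell by 1.55 ± 0.19 on the log2 scale (edgeR adjusted p = 0.00332). Yeats2 (-0.21 ± 0.16, edgeR adjusted p = 0.528) and Boc (-0.17 ± 0.26, edgeR adjusted p = 0.813) did not pass the threshold. Apod rose by 5.80 ± 0.84 (edgeR adjusted p = 0.00704), with 7.86 CPM at 0h, 23.2 CPM at 24h and 427 CPM at 7d. Mcm4, the fourth coding row after Snai2 on the chromosome, was at -0.88 ± 0.29 by 7d (edgeR adjusted p = 0.135) and had a correlation of 0.80 with it over the 15 libraries. Abcc1, the second coding row before it, fell by 0.65 ± 0.12 (edgeR adjusted p = 0.0163), and its correlation was 0.78. Of the other neighbours tested, none was called by 7d. They had correlations between -0.37 for Mzt2 and 0.50 for Nde1.

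**Figure D4:**
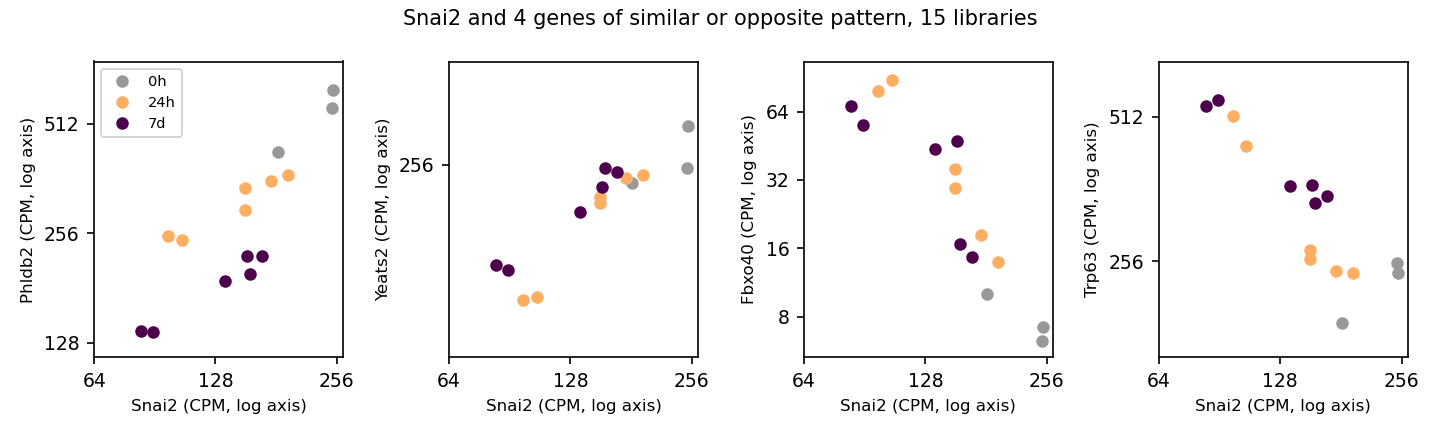
Levels of 4 genes against Snai2 in the 15 libraries, both in CPM on log axes, coloured by time. Phldb2 and Yeats2 run with Snai2 (correlations with the time means subtracted 0.97 and 0.97), while Fbxo40 and Trp63 run against it (-0.92 and -0.88 over the 15 libraries).

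The promoters of these genes were searched for the E-box that Snail proteins bind, CAGGTG or its reverse complement CACCTG, which covers both strands, in the 250 bases before and 50 after each start. Of the 11 genes most like Snai2, 9 had a promoter in the RefSeq table, and 3 of these (33.3%) held the motif, namely Phldb2, Arvcf and App. Of the 7 least like it, 5 had a promoter and 1 (20%) held it, Fbxo40. A gene was counted when any start listed for it held the motif, and it was absent from 1 of 2 starts of Fbxo40 and 2 of 3 of Arvcf. The motif was found for 6098 (22.6%) of all 27025 genes listed there. A match is a string of letters and not a bound site. The promoters of Phldb2, the gene closest to Snai2 over the 12 libraries, and of Fbxo40, the one farthest from it over the 15, are shown because they hold the motif (in capitals); the 2 likeness orders differ, and each gene is at an extreme of its own order only. For Fbxo40 the start with the motif is the one shown. They are RefSeq sequences of build GRCm38.p6, both of genes on the minus strand, printed 5′ to 3′ along the gene, at chr16:45844329-45844628 for Phldb2 and chr16:36990418-36990717 for Fbxo40.
Phldb2: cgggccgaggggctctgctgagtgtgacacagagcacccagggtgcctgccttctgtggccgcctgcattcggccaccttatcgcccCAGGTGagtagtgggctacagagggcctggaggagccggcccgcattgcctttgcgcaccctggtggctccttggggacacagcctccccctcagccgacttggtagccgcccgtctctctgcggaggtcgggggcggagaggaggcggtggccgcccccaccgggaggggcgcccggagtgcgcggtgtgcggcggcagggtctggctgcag
Fbxo40: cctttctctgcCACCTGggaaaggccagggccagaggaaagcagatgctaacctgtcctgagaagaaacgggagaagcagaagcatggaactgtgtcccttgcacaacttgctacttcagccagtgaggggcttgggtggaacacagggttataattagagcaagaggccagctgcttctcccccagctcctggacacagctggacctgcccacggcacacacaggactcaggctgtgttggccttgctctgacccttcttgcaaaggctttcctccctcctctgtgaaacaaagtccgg

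The partners and known targets of Snai2 could be read only in part. Of 138 genes on 6 lists, 28 other than Snai2 lay in register and 25 were tested. The CoREST complex with its histone modifiers and the other Snail and epithelial-to-mesenchymal transcription factors had 0 members in register, so the levels of those genes are not given here. By 24h 2 of the 25 rose (Adamts1 and Lrp5) and 2 fell (Adamts5 and Hes1), where 1.86% of all rows and 13 of 453 in-register genes were called. Their median was -0.07, against 0.06 over all rows tested and -0.0086 over in-register genes. The call of Adamts5 by 24h was lost with the replicate block (-0.87, edgeR adjusted p = 0.0689) and in sample 2 alone (-0.82, edgeR adjusted p = 0.0823). By 7d 3 rose and 6 fell (median -0.16, against 0.07 and 0.03), where 5.76% of rows and 55 of 453 in-register genes were called. Of the same 25, 0 rose and 2 fell between 24h and 7d, namely Pkp2 and Lrrc15 (median -0.03, against -0.02 and 0.03), where 2.34% of rows and 22 of 453 in-register genes were called. With the replicate block neither passed, with edgeR adjusted p-values of 0.0502 for Pkp2 and 0.0766 for Lrrc15. The call of Lrrc15 was also lost with all 18 libraries (edgeR adjusted p = 0.577), in sample 2 alone (edgeR adjusted p = 0.139), and without any single library at 24h or 7d other than sample 2 of shRcor2-18 at 24h or sample 1 of shRcor2-20 at 7d (log2 values of -1.295 to -1.07). None of the 25 was called between the hairpins and shScramble over both times by edgeR or by DESeq2, with 1 at an unadjusted p under 0.05 by each tool (median -0.02, against -0.0017 and -0.0074).

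By 7d, where 5.76% of all rows and 55 of 453 in-register genes were called, 1 of 6 junction and cytoskeleton genes tested was called: the desmosomal plakophilin Pkp2 fell by 3.15 ± 0.28 (edgeR adjusted p = 0.000902). Trp63 did not pass, nor did the tight junction gene Cldn1 (-0.42 ± 0.22, edgeR adjusted p = 0.34) or the polarity scaffold Dlg1 (0.02 ± 0.10, edgeR adjusted p = 0.977). Among 13 mesenchymal and migration genes, 2 rose and 4 fell by 7d, against those same background counts. The metalloprotease Adamts1 rose by 3.16 ± 0.28 (edgeR adjusted p = 0.000902). The related protease Adamts5 fell by 1.36 ± 0.13 (edgeR adjusted p = 0.00121), and the stromal surface gene Lrrc15 fell by 2.41 ± 0.25 (edgeR adjusted p = 0.00176). The AP-1 gene Fosl1 fell by 1.52 ± 0.31 (edgeR adjusted p = 0.028). Its call was lost without sample 2 of shScramble or of shRcor2-18 at 0h, and without sample 1 of shScramble, sample 1 of shRcor2-18 or either sample of shRcor2-20 at 7d, with log2 values of -1.55 to -1.38 in these fits. It was lost with the replicate block too (-1.285, edgeR adjusted p = 0.0673).

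Of 3 tested genes that control Snail proteins through Wnt and GSK3, the Wnt co-receptor Lrp5 rose by 1.62 ± 0.10 by 7d (edgeR adjusted p = 0.000228). In that comparison 5.76% of all rows and 55 of 453 in-register genes were called. The kinase Gsk3b, known to mark Snail proteins for degradation, was at -0.16 ± 0.14 (edgeR adjusted p = 0.594), and the Wnt mediator Dvl3 at 0.05 ± 0.12 (edgeR adjusted p = 0.914). Of 3 Notch and BMP genes, the Notch target Hes1 fell by 3.48 ± 0.37 by 24h (edgeR adjusted p = 0.00334) and fell by 2.92 ± 0.36 by 7d (edgeR adjusted p = 0.00347). Hes1 was low, with a mean of 7.4 CPM over the 15 libraries. The 24h comparison called 1.86% of all rows and 13 of 453 in-register genes. The BMP inhibitor Chrd was at 0.64 ± 0.24 (edgeR adjusted p = 0.181) and Poglut1 at 0.26 ± 0.13 (edgeR adjusted p = 0.313) by 7d.

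Markers of cell types were in register for 12 of 41 genes. None of the 9 osteoblast markers was among them, so the label of a preosteoblast line could not be checked. The 3 of 7 epithelial markers in register (Trp63, Cldn1 and Ppl) summed to 232.5 to 295 CPM at 0h, 278 to 547 CPM at 24h and 384 to 594 CPM at 7d, most of it Trp63. The markers did not move as one, since Cldn1 averaged 36.7 CPM at 0h, 25.4 CPM at 24h and 27.6 CPM at 7d. At the same times Trp63 averaged 228, 329 and 420 CPM, and Ppl averaged 5.3, 7.7 and 15.1 CPM. By 7d Ppl was at 1.5 ± 0.37 (log2, SE), and none of the 3 passed the threshold in the fit to all rows. The myocyte markers in register, 2 of 5 (Fbxo40 and the muscle actinin Actn3), summed to 11.7 to 15.99 CPM at 0h, 83 to 185 CPM at 24h and 154.5 to 190 CPM at 7d. Markers of lymphoid and myeloid cells, 5 of 7 in register, summed to 161 to 196, 166 to 197 and 213 to 300 CPM at the 3 times, most of it Cd80, with Cd86 at 0. The adipocyte marker in register, Adipoq, reached at most 0.67 CPM, the endothelial marker Cldn5 was at 0 in all 15 libraries, and no chondrocyte marker was in register. All these sums leave out sample 1 at 0h, where Trp63 alone held 453 to 582 CPM and Fbxo40 23 to 52.9 CPM. The part of these markers in the levels of Snai2 was not tested.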

How the data were processed

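The authors deposited 1 table of raw counts per gene, made from reads of 100 bases per the labels. The submitters' processing notes name FastQC, TopHat2 2.0.9, the build mm9, DESeq and DESeq2. How reads were counted, with which strand rule and gene models, is not given in the sources used here. Of the 40620 row identifiers, 39547 (97.4%) matched GENCODE vM21 (GRCm38), which gave names, gene types, order and exon length, so no coordinates of the table are printed. Overlapping transcripts cannot be separated without the strand.

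Genes, lists and tests were chosen with earlier results of these data known. Register was scored at 20 CPM over broadly expressed genes along each chromosome (chance of detection 0.9 in and 0.3 out of register, at least 10 genes, log likelihood ratio of at least 3, last 3 rows dropped). They were set with the data in view, in place of a first search over all coding genes that stopped partway along chromosome 16.

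Tests used edgeR 4.0.16 (R 4.3.3) with filterByExpr, TMM, 9 group means, robust quasi-likelihood F test, Benjamini-Hochberg over all rows, threshold 0.05. It kept 12930 rows of the 15 libraries (6 residual degrees of freedom), in which each construct keeps 1 library at 0h, taken to vary as the others do, and 12157 rows of all 18 (9 residual degrees of freedom). An SE is the log2 change over the root of its F value. The procedure was tested on simulated counts of independent libraries. These had none of the pairing seen here, so that test does not cover p-values under such pairing. DESeq2 1.42.0 was an alternative. Fits restricted to in-register rows and those with a pairing block are alternatives too; those on sample 2 alone, and those on in-register rows with a block, were added after seeing the data.

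Sample numbers pair 24h and 7d within constructs, since same-numbered deviations correlated over 0.1 across genes in all 3; this comes from the values, as the labels state no pairing. Between constructs the number correlated at 0.38 to 0.74 at 0h and at -0.03 to 0.28 later. Named genes besides Snai2 were, by rule, up to 4 per list (called first, then most abundant), 6 coding neighbours on each side, and the 6 most and 4 least correlated in-register genes of mean log2 CPM 3 or more.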

Additional observations from a re-analysis of the deposited data

How the results depend on the processing

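The log2 difference of Snai2 by 7d stayed below 0 under all 29 alternatives run, from -1.03 to -0.50, and passed the threshold in 5: -0.79 over in-register rows, -0.91 with all 18 libraries, and, added after seeing the data, -0.52 over in-register rows with the replicate block, -0.50 in sample 2 alone and -0.51 there over in-register rows. By 24h it ran from -0.87 to -0.35 and passed in 2 added alternatives, with -0.35 over in-register rows with the replicate block and -0.35 in sample 2 over in-register rows. The fits with the replicate block and those on sample 2 share the comparison with sample 2 at 0h, so they are not separate support. Without single libraries the 24h difference was -0.80 to -0.52, the 7d difference -0.96 to -0.67 and that between 24h and 7d -0.32 to 0.0079. The replicate block within constructs gave -0.53 by 7d over all rows and turned no time effect round. Since this block lies within a construct, differences between constructs are taken in sample 1 alone, with -0.014 for shRcor2-18 minus shScramble, 0.60 for shRcor2-20 minus shScramble (unadjusted p = 0.00423, edgeR adjusted p = 0.564) and -0.62 for shRcor2-18 minus shRcor2-20 (unadjusted p = 0.00385, edgeR adjusted p = 0.584). The cause of these shifts was not tested.

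With the pairs of closest libraries as a block, all hairpin values turned negative: -0.046 at 24h, -0.079 at 7d, -0.062 over both times, -0.091 for shRcor2-18 and -0.034 for shRcor2-20, and over in-register rows, added after seeing the data, -0.046, -0.076, -0.061, -0.089 and -0.033 in the same order. Without single libraries the hairpin value was 0.02 to 0.53 at 24h, -0.18 to 0.70 at 7d and 0.04 to 0.48 over both times, -0.18 to 0.32 for shRcor2-18, 0.20 to 0.64 for shRcor2-20, and -0.44 to 0.44 for the effect at 7d minus that at 24h. None of these passed the threshold.

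Members of the lists called by 24h numbered 4 of 25. These fits call unlike shares of all features, given in brackets. Against the 4 by 24h (1.86%) there were 3 with the replicate block (0.433%), 7 by DESeq2, 7 over in-register rows (5.3%), 7 with all 18 libraries (1.56%), 11 over in-register rows with the replicate block (11.9%) and 10 in sample 2 over in-register rows (12.4%). By 7d they numbered 9 (5.76%), against 10 with the replicate block (3.34%), 15 by DESeq2, 14 over in-register rows (25.6%), 13 with all 18 libraries (6.98%), 15 over in-register rows with the replicate block (32.5%) and 16 in sample 2 over in-register rows (36.6%). Between 24h and 7d they numbered 2 (2.34%), against 7 by DESeq2, 7 over in-register rows (18.3%), 1 with all 18 libraries (0.313%), 0 with the replicate block (1.31%), 16 with it over in-register rows (33.1%), 5 in sample 2 (1.01%), 12 there over in-register rows (24.3%) and 1 to 2 without single libraries. Over all rows DESeq2 called 578 of 11426 rows by 24h, 1406 of 11677 by 7d and 1076 of 12178 between 24h and 7d, against 240, 745 and 302 by edgeR, and 21 against 6 for the hairpins over both times. With all 18 libraries the correlation of Poglut1 with Snai2 was 0.25, turned round from -0.83. Only 3 libraries at 0h without sample 1, and in-register rows on 2 chromosomes, limit what can be said of Snai2 and its partners.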
